A study of Mus musculus with 28 samples.

Results

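The Th2 cytokines and regulators are 7 genes, Il4, Il5, Il13, Il10, Il24, Gata3 and Maf, chosen by name out of the 24089 genes of the RNA-seq table, and all 7 were found in it. Il9, the cytokine that names Th9 cells, is set beside them. Mice were Tgfbr1 f/f Ert2-cre+ on a C57BL/6 background, of both sexes and 8 to 10 weeks old. They carried a Cre recombinase that tamoxifen switches on in any cell type, so mice given oil kept the TGF-β receptor I gene (WT) and mice given tamoxifen were to lose it (Tgfbr1 KO, or KO). Deletion and tamoxifen went together in every mouse, and their effects cannot be told apart. Naïve CD4+ T cells were stimulated through the T cell receptor with anti-CD3 and anti-CD28 in every group, with nothing else (control), with TGF-β, with IL-4, or with TGF-β + IL-4. The RNA-seq data were 24 libraries in 8 groups of 3, with levels in RPKM, reads per kilobase of gene scaled to the mapped reads of the library. The DNase-seq data were 4 libraries, from the control and the TGF-β + IL-4 culture of replicate 3 of each genotype.

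In a Th2 cell, IL-4 binds its receptor and activates STAT6, and STAT6 raises GATA3, the transcription factor that commits a CD4+ T cell to the Th2 fate. GATA3 opens the gene cluster that holds Il4, Il13 and Il5, and MAF activates Il4. IL-5 acts on eosinophils, IL-13 on epithelium and macrophages, and IL-10 and IL-24 belong to one cytokine family whose genes lie close together. Th9 cells need IL-4 too, together with TGF-β, a cytokine known to hold Th2 differentiation back.

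The headings of the RNA-seq table conflict with read counts that accompany the study. These counts list 8 WT libraries, and each was compared with every column by which genes were at 0. In 8 of 8 libraries the best column was the one expected if the 24 columns run in the order of the library numbers, with at least 99.849% of 1991 to 3821 genes in agreement and at most 85.789% in any other column. In 2 of 8 the best column carried the heading of that library, and in 6 it carried another heading. The columns were therefore read by position, WT before KO, with the 4 cultures of a mouse following each other (control first, then TGF-β, IL-4 and the combination). There was no library to compare for 4 WT columns, those of replicate 2, and for all 12 KO columns, so the culture of each of these rests on that order. The plot of Gata3 under both readings shows what the choice does. Grouped by headings, the 3 columns of a group lay far apart, and between 0 and 9 genes passed the test described next in each of 16 comparisons, none of them 1 of the 7.

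**Figure D1:**
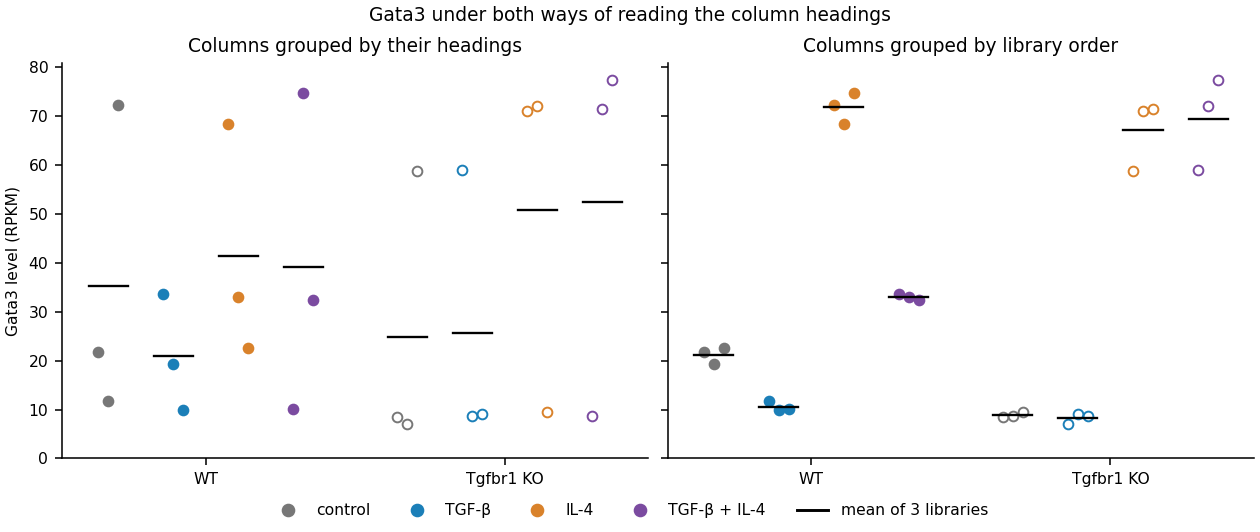
Gata3 level (RPKM, vertical axis) in the 24 libraries, grouped by the headings of the columns (left) and by library order (right). Filled points are WT, open points Tgfbr1 KO, colours give the culture and black lines are means of 3 libraries. By library order the 3 WT IL-4 libraries sit at 68.4 to 74.8 RPKM and the 3 WT control libraries at 19.3 to 22.5 RPKM, while by headings high and low columns mix within a group.

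Each comparison was tested with limma on log2(RPKM + 0.1) over all genes with a mean of at least 0.1 RPKM in the libraries compared. A gene passed where its p, adjusted by the method of Benjamini and Hochberg, was under 0.01 and its fold over 1.5, and fold changes of low genes are understated on this scale. Replicate numbers are taken to name mice, 3 per genotype. Tgfbr1 itself was at 2.32 to 3.05 RPKM in the 3 KO control libraries and at 3.02 to 3.31 RPKM in the WT control libraries, so the gene-level RPKM did not show the deletion in that culture. With TGF-β it was at 13.9 to 14.5 RPKM in WT and at 2.37 to 3.24 RPKM in KO libraries. The 8 CD4 T cell markers summed to 1373 to 1843 RPKM over all groups. Markers of other cells were low but moved. The 6 myeloid markers summed to 4.28 to 6.83 RPKM in WT control and to 1.05 to 2.45 RPKM in KO control. With TGF-β they summed to 7.42 to 20.3 RPKM in WT and to 1.67 to 11.2 RPKM in KO, which overlap. Their sums with TGF-β + IL-4 were 8.53 to 19.1 RPKM in WT and 3.01 to 5.98 RPKM in KO, which do not overlap. Those with IL-4 were 3.36 to 4.93 RPKM in WT and 2.36 to 4.77 RPKM in KO, which overlap. The 6 mast cell and basophil markers summed to 6.51 to 7.61 RPKM in WT control and to 11.1 to 14.5 RPKM in KO control. The 5 B cell markers summed to 14.8 to 23.3 RPKM in WT control and to 9.27 to 10.5 RPKM in KO control, the 3 NK cell markers to 3.82 to 4.15 and 2.67 to 2.86 RPKM, and the 2 CD8 T cell markers to 24.8 to 26.9 and 14.8 to 16.7 RPKM. Of all these markers 1, Cd14 in KO IL-4, was at 0 in all 3 libraries of a group, and the part of other cells in the results below was not tested. In a bulk sample, fewer cells of a kind and less RNA per cell cannot be told apart.

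Gata3 was the most abundant of the 7 genes and the only one to pass the test for IL-4 against control. It lies on the minus strand of mouse chromosome 2 (chr2:9778705-9811661, mm9). In WT control it was at 21.7, 19.3 and 22.5 RPKM. With IL-4 it was at 72.3, 68.4 and 74.8 RPKM. Every IL-4 library stood above every control library, a difference of 1.76 ± 0.07 (log2 fold change ± SE, adjusted p = 5.94e-05 in limma), or 3.39-fold. With TGF-β alone Gata3 was at 11.8, 9.86 and 10.2 RPKM. It fell by 0.99 on the log2 scale (SE 0.09, adjusted p = 0.000218 in limma), and again the groups did not overlap. With TGF-β + IL-4 it was at 33.6, 33.0 and 32.3 RPKM, between the control and the IL-4 libraries. That was 0.64 ± 0.07 above control (log2, adjusted p = 0.000139 in limma), 1.63 ± 0.07 above TGF-β alone (adjusted p = 5.73e-06 in limma) and 1.12 below IL-4 alone (SE 0.05, adjusted p = 1.74e-06 in limma). The step from control was 1.56-fold and close to the 1.5-fold limit, and it fell to 0.58 on the log2 scale, under that limit, without WT control replicate 2, in the 8 identified WT libraries alone and with median ratio scaling. The interaction between both cytokines in WT cells, the departure from adding up on the log scale, was −0.13 ± 0.10 and did not pass (adjusted p = 0.51 in limma).

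In the KO cells Gata3 began lower and rose further with IL-4, and the libraries with and without TGF-β overlapped. KO control libraries held 8.51, 8.65 and 9.58 RPKM. KO TGF-β libraries held 7.09, 9.09 and 8.60 RPKM. All of these lay below the 12 WT libraries, and the 2 groups overlapped each other, with a TGF-β difference of −0.11 ± 0.11 (log2, adjusted p = 1 in limma). KO IL-4 libraries held 58.8, 71.0 and 71.4 RPKM. KO TGF-β + IL-4 libraries held 59.0, 72.0 and 77.3 RPKM. Both were far above KO control, by 2.89 ± 0.09 and 2.94 ± 0.11 on the log2 scale (adjusted p = 1.92e-06 and 1.26e-05 in limma). The KO IL-4 and KO TGF-β + IL-4 libraries overlapped each other and the WT IL-4 libraries. Against WT, Gata3 in KO cells was lower in control (−1.24 ± 0.08, adjusted p = 0.000145 in limma) and higher in TGF-β + IL-4 (1.06 ± 0.10, adjusted p = 0.000226 in limma). With TGF-β (−0.36 ± 0.11, adjusted p = 0.036) and with IL-4 (−0.10 ± 0.08, adjusted p = 0.464) the genotypes did not pass the limma test. The difference between the genotypes in the response was tested itself. It was 2.30 ± 0.13 for TGF-β + IL-4 (adjusted p = 1e-06 in limma), 0.88 ± 0.14 for TGF-β (adjusted p = 0.0017 in limma) and 1.13 ± 0.12 for IL-4 (adjusted p = 0.00321 in limma). The last of these was the least stable. Leaving out 9 of the 12 in turn (each of the 3 WT IL-4 libraries, KO IL-4 replicates 2 and 3, WT control replicates 1 and 3, and KO control replicates 1 and 2) moved its adjusted p in limma to between 0.0113 and 0.0208, with a log2 difference of 1.09 to 1.16.

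DNase-seq marks open chromatin as DNase I hypersensitive sites (DHSs), and Gata3 had 6 of them within 10 kb of the gene. In all 4 lists a DHS overlapped the first 1 kb of its annotated span (chr2:9810937-9811547). Its fold enrichments over local background were 3.60 and 4.08 in the control and TGF-β + IL-4 cultures of WT cells. They were 3.35 and 4.49 in those of KO cells. That site also overlaps an exon of the gene 9230102O04Rik, and the RNA-seq method does not mark strand, so reads of genes that overlap there cannot be told apart. A site in exons of Gata3 and Gm13256 (chr2:9800109-9800317) was found only in KO cells given both cytokines, with a fold enrichment of 3.11. RefSeq puts the Gata3 promoter at chr2:9878601-9878850 in GRCm38.p6, a different genome build from mm9. That promoter was not placed on mm9, so which site lies at the RefSeq start was not examined. A further pair of sites, both in introns by the annotated span of Gata3, was in all 4 lists. The one at chr2:9801117-9801526 had fold enrichments of 5.02, 4.64, 4.36 and 4.42 in the same order. The other, at chr2:9788801-9789505, had 5.19, 3.90, 3.37 and 3.01, and the order of the lists is not that of the Gata3 RNA. Its middle 300 bases are shown because, of the Gata3 sites in all 4 lists, it was the one that held both a GATA motif (AGATAA or TGATAA, or either with G as the last letter) and a STAT motif (TTC and GAA with any 4 bases between them), searched on both strands. It held 2 of the former and 1 of the latter. A GATA motif was found in 31.3% and a STAT motif in 7.8% of the middle 300 bases of all 44298 DHSs of WT control. The sequence is from mm9 (chr2:9789004-9789303, minus strand), 5′ to 3′, with motifs in capitals.
Gata3 intronic DHS: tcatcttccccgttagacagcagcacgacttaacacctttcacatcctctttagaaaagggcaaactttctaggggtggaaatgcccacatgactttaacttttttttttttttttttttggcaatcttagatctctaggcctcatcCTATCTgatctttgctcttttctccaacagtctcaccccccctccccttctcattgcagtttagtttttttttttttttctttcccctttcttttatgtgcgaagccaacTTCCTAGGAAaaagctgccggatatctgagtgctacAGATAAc

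Maf rose with TGF-β in WT cells, where Gata3 fell, and it did not pass in any KO culture. MAF is a transcription factor that activates Il4 and, in several helper T cell types, Il10. Its gene lies at chr8:118206842-118231694 on the minus strand (mm9). WT control libraries held 0.394, 0.406 and 0.476 RPKM. WT IL-4 libraries held 0.424, 0.585 and 0.468 RPKM, and the 2 groups overlapped (0.17 ± 0.17 on the log2 scale, adjusted p = 0.689 in limma). WT TGF-β libraries held 2.23, 2.38 and 2.81 RPKM. WT TGF-β + IL-4 libraries held 1.74, 1.77 and 2.19 RPKM. Both groups with TGF-β stood above every library without it, by 2.29 ± 0.14 (adjusted p = 2.57e-05 in limma) and 1.92 ± 0.15 (adjusted p = 3.4e-05 in limma) against control. With IL-4 added to TGF-β the level was 0.37 lower on the log2 scale (SE 0.14) and did not pass (adjusted p = 0.102 in limma), although the 3 libraries of each group did not overlap.

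The 12 KO libraries held between 0.197 and 0.389 RPKM of Maf in every culture, below the lowest WT library. KO TGF-β libraries held 0.251, 0.389 and 0.344 RPKM and KO control libraries 0.283, 0.323 and 0.343 RPKM, a difference of 0.03 ± 0.22 (log2, adjusted p = 1 in limma). Against WT, Maf was 6.04-fold lower in the TGF-β culture (−2.59 ± 0.17, adjusted p = 1.38e-05 in limma) and 5.38-fold lower in TGF-β + IL-4 (−2.43 ± 0.21, adjusted p = 0.000164 in limma). In control (−0.33 ± 0.17, adjusted p = 0.255) and IL-4 (−0.79 ± 0.21, adjusted p = 0.0505) the difference did not pass in limma. The Maf response differed between the genotypes by −2.26 ± 0.23 for TGF-β (adjusted p = 3.78e-05 in limma) and by −2.09 ± 0.26 for TGF-β + IL-4 (adjusted p = 0.000288 in limma). Gata3 and Maf took opposite signs in both of these tests.

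Open chromatin at the start of Maf was listed in all 4 DNase-seq libraries (chr8:118231560-118232145). Its fold enrichment in WT cells was 9.70 in control and 9.54 with TGF-β + IL-4. In KO cells it was 7.44 and 6.17. In the same order it ranked within the top 13.8%, 11.5%, 15.7% and 28.5% of its own list. It was the strongest DHS near any of the 7 genes in each list, also in the cultures where Maf RNA was low. The 300 bases before the Maf start that lie within it are shown for that reason (mm9, chr8:118231695-118231994, minus strand, 5′ to 3′). Capitals mark a MAF half-site (TGCTGA on either strand), which 21.9% of the middle 300 bases of all WT control DHSs hold.
Maf start DHS: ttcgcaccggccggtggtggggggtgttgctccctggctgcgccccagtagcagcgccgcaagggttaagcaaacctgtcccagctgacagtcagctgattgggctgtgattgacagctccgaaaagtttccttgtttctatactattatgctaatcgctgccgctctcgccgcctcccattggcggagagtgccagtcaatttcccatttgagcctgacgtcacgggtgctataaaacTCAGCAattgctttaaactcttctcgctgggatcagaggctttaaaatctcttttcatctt

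Il24 was expressed in WT cells and nearly absent from KO cells in every culture. IL-24 is a member of the IL-10 family that Th2 cells secrete, and its gene (chr1:132778651-132784031, minus strand, mm9) lies near Il10. WT control libraries held 1.13, 0.942 and 0.803 RPKM, and KO control libraries 0, 0 and 0 RPKM. WT TGF-β libraries held 1.00, 0.763 and 0.722 RPKM, and KO TGF-β libraries again 0, 0 and 0 RPKM. RPKM values step by what 1 read is worth, and from those steps the WT libraries of these cultures held 105 and 83 Il24 reads in all and the KO libraries none. A count of 0 allows up to 3 reads over the group, or 0.0304 RPKM in KO control and 0.0356 RPKM in KO TGF-β, for counting error alone. Against that limit Il24 was at least 31.4-fold higher in WT than in KO control, and at least 23.1-fold higher with TGF-β.

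With IL-4 the WT libraries held 0.938, 1.99 and 2.09 RPKM of Il24 and the KO libraries 0.0893, 0.142 and 0 RPKM. With TGF-β + IL-4 the WT libraries held 0.782, 0.806 and 0.851 RPKM and the KO libraries 0.120, 0.140 and 0.140 RPKM. No KO library reached the lowest WT library. In reads, WT was 18.4-fold higher with IL-4 (175 against 7 reads over 3 libraries each) and 6.14-fold higher with TGF-β + IL-4 (61 against 12 reads). The genotypes passed in all 4 cultures, with log2 differences of −3.39 in control, −3.20 with TGF-β, −3.34 with IL-4 and −1.97 with TGF-β + IL-4 (adjusted p between 1.38e-05 and 0.000986 in limma), values that depend on the pseudocount since the KO level is near 0. The IL-4 culture did not pass on recovered reads with limma-voom (−4.31, adjusted p = 0.0177) or without a trend (−3.34, adjusted p = 0.014). The 5 KO libraries with Il24 reads were all cultured with IL-4. The genotype difference in the response to TGF-β + IL-4 was 1.42 ± 0.24 (adjusted p = 0.00266 in limma), with a KO control at 0, and it was lost with a pseudocount of 1 (0.29, adjusted p = 0.0516), with a replicate block (adjusted p = 0.0228), with all 24 libraries in one fit (adjusted p = 0.0142) and without WT control replicate 1 (1.31, adjusted p = 0.0113). Within WT, Il24 did not pass in any culture. Against IL-4 alone, TGF-β + IL-4 was −0.88 ± 0.26 (adjusted p = 0.0289 in limma), and without WT IL-4 replicate 1, the lowest of its group, −1.23 (adjusted p = 0.000822).

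Il4, Il13 and Il5, the cytokines that define Th2 cells, were scarce in all libraries, and none of them passed in a comparison where Gata3 did. They lie in one cluster on chromosome 11 (mm9): Il4 at chr11:53416484-53432171, Il13 at chr11:53444826-53448204 and Il5 at chr11:53534296-53538608. Their promoters are shown because these 3 genes had low levels where Gata3 was high, and the 250 bases before each start can be searched for GATA motifs. The sequences are RefSeq's (GRCm38.p6), 5′ to 3′ on the gene's strand, with GATA, STAT and MAF half-site motifs in capitals. Il4 is chr11:53618666-53618915 (minus strand, the more upstream of its 2 entries), Il5 chr11:53720544-53720793 (plus) and Il13 chr11:53634703-53634952 (minus).
Il4 promoter: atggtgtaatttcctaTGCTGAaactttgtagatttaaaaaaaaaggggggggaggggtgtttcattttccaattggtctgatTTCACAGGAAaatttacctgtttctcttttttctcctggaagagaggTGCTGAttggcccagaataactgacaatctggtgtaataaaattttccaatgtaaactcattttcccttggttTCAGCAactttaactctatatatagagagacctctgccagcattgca
Il5 promoter: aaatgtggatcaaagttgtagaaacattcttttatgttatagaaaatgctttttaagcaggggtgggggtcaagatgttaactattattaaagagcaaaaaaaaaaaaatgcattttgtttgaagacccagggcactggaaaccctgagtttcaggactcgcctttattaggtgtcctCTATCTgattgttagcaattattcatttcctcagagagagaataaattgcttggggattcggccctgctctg
Il13 promoter: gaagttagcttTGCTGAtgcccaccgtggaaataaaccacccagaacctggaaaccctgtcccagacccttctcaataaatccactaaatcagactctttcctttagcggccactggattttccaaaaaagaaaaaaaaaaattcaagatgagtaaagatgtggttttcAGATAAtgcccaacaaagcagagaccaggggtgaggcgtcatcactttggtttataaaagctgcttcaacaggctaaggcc

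The Il5 and the Il13 promoter each held 1 GATA motif, as 26.5% of all 32851 RefSeq promoters did over the same 250 bases. The Il4 promoter shown held none, 1 STAT motif (found in 5.85% of all promoters) and 3 MAF half-sites (found in 16.1%). The second Il4 entry held 1 GATA motif, and the Il13 promoter held 1 MAF half-site. A match is only a run of letters, and no match in 250 bases says nothing of sites elsewhere. Entries were found for 5 of the 8 genes, Il4, Il5, Il13, Gata3 and Il9.

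Il4 was at 0.818, 1.52 and 1.24 RPKM in WT control and at 1.62, 2 and 2.33 RPKM in WT IL-4. The groups did not overlap, but the difference of 0.72 ± 0.22 on the log2 scale did not pass (adjusted p = 0.147 in limma), while Gata3 rose 3.39-fold in the same libraries. WT TGF-β + IL-4 libraries ranged from 1.02 to 2.82 RPKM and WT TGF-β libraries from 0.506 to 1.55 RPKM, both wide. In KO cells Il4 was at 0.0677 to 0.762 RPKM in control, 0.367 to 0.510 with TGF-β, 0.488 to 0.819 with IL-4 and 0.800 to 1.43 with TGF-β + IL-4. KO IL-4 libraries lay below all WT IL-4 libraries, by 1.41 on the log2 scale (SE 0.21, adjusted p = 0.00405 in limma). That is the 1 comparison in which Il4 passed. In limma it did not pass with no filter (adjusted p = 0.0152), without a trend (adjusted p = 0.021) or with all 24 libraries in one fit (adjusted p = 0.063). Nor did it pass without KO IL-4 replicate 1 or 3 or WT IL-4 replicate 2 or 3, each left out in turn (adjusted p between 0.0103 and 0.0172 in limma). The log2 difference then lay between −1.53 and −1.29. It also missed with a replicate block (adjusted p = 0.0121 in limma). That block paired WT and KO mice by number, although these are different mice, so it cannot decide the question. In the same libraries Gata3 ran from 68.4 to 74.8 RPKM in WT and from 58.8 to 71.4 RPKM in KO, and these overlapped. In 22 of 24 libraries Il4 was within 0.05 of a whole number of reads, and since the other 2 were not, Il4 was not tested on reads.

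Il13 ran from 0.0739 to 0.965 RPKM over the 24 libraries and Il5 from 0 to 0.528 RPKM. In reads, Il13 had between 2 and 41 in a library and Il5 between 0 and 28. The highest Il13 libraries were WT IL-4 replicate 3 at 0.965 RPKM and KO IL-4 replicate 1 at 0.661 RPKM, and other libraries of those groups were at 0.432 and 0.238 RPKM. The highest Il5 value, 0.528 RPKM, was in WT control replicate 3, where the other 2 libraries held 0.117 and 0.0429 RPKM. Neither gene passed in any comparison in which it was tested. For IL-4 against control the log2 difference of Il13 was 0.58 ± 0.36 in WT (adjusted p = 0.494 in limma) and 0.81 ± 0.38 in KO (adjusted p = 0.301 in limma), while Il5 was at −0.10 ± 0.52 in WT (adjusted p = 0.952 in limma). Il5 fell under the minimum in 7 of the 16 comparisons.

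Il10, which encodes a cytokine that restrains inflammation and which Th2 cells share with other helper T cells, lies at chr1:132916422-132921551 (plus strand, mm9). It was at 0.252, 0.705 and 0.598 RPKM in WT control and at 0.936, 1.16 and 1.37 RPKM in WT IL-4. The groups did not overlap, with a log2 difference of 1.09 ± 0.30 that did not pass (adjusted p = 0.109 in limma). WT TGF-β + IL-4 libraries were at 0.635, 1.15 and 0.791 RPKM. KO libraries spread widely, from 0.180 to 1.36 RPKM in TGF-β + IL-4 and from 0.270 to 1.13 RPKM in control. No difference between the genotypes passed, and the largest was −0.41 ± 0.23 with IL-4 (log2, adjusted p = 0.31 in limma).

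Il9 rose with TGF-β, as Maf did, while Gata3 fell. It was at 9.93, 10.9 and 8.15 RPKM in WT control, 13, 14.6 and 17.4 RPKM with IL-4, 45.9, 45.2 and 40.1 RPKM with TGF-β and 36.1, 33.6 and 34.1 RPKM with TGF-β + IL-4. Against control it rose with TGF-β (2.17 ± 0.11, adjusted p = 1.18e-05 in limma) and with TGF-β + IL-4 (1.84 ± 0.10, adjusted p = 4.48e-06 in limma). All 12 KO libraries lay between 0.250 and 2.72 RPKM, and the fitted fold below WT ran from 15.42 to 24.04 over the 4 cultures, all of which passed. At that lower level Il9 was still higher with TGF-β in KO cells. KO TGF-β libraries held 2.33, 2.30 and 0.936 RPKM and KO control libraries 0.583, 0.275 and 0.250 RPKM, which did not overlap, a difference of 2.03 ± 0.38 (log2, adjusted p = 0.59 in limma). With TGF-β + IL-4 it was 2.06 ± 0.34 (adjusted p = 0.0124 in limma). Neither passed, but with all 24 libraries in one fit both did (adjusted p = 0.00129 and 2.23e-05 in limma). The genotype difference in the TGF-β response of Il9 was −0.15 ± 0.44 (adjusted p = 0.911 in limma), where that of Maf was −2.26. In the WT libraries with TGF-β + IL-4, RPKM was 34.6 ± 1.33 (SD, n = 3) for Il9, 33.0 ± 0.623 for Gata3, 1.90 ± 0.251 for Maf, 1.75 ± 0.945 for Il4 and 0.0762 ± 0.0582 for Il5. In the KO libraries with TGF-β + IL-4 it was 1.85 ± 0.751 for Il9 and 69.4 ± 9.41 for Gata3.

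**Figure D2:**
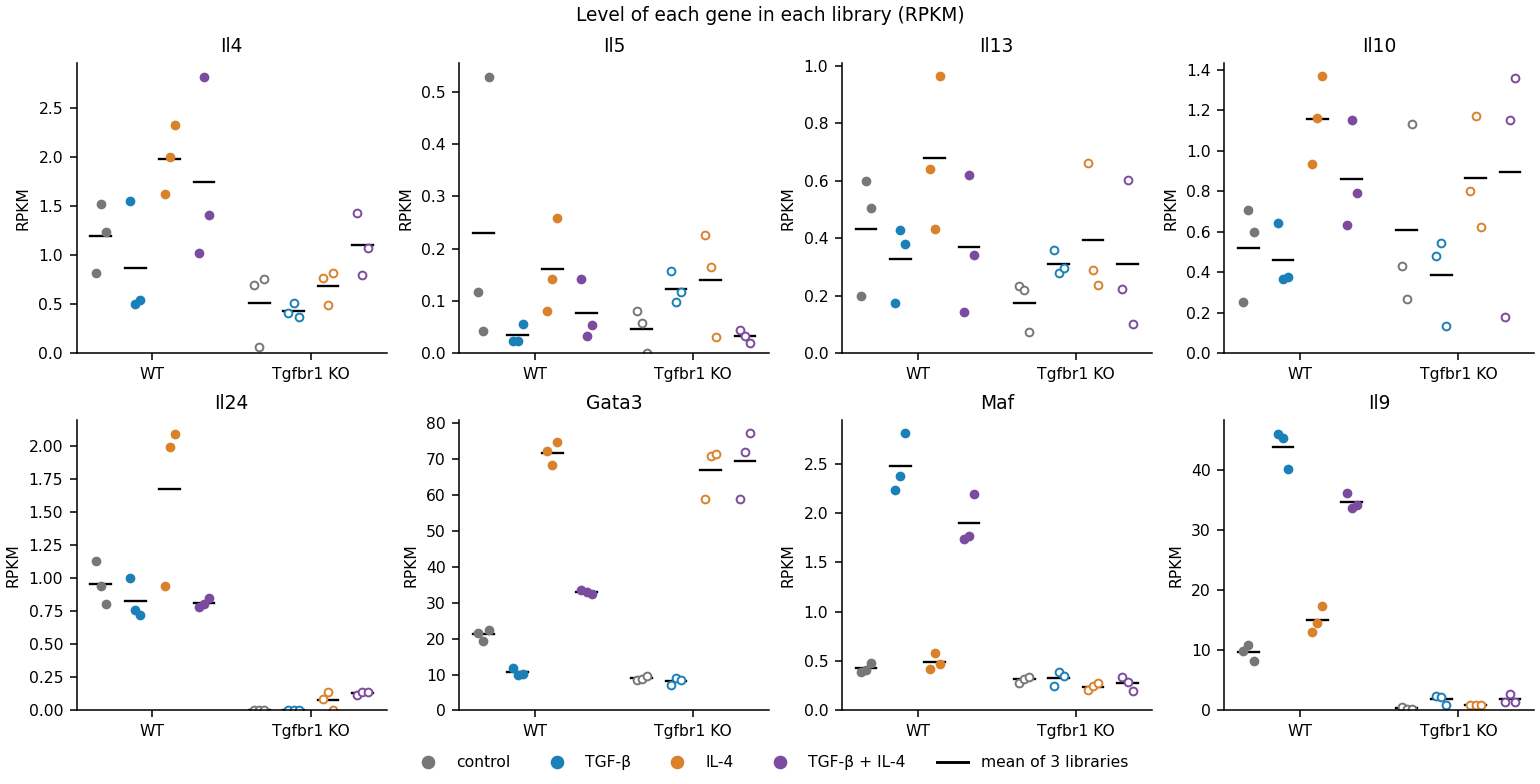
RPKM (vertical axes, from 0) of the 7 genes and Il9 in each of 24 libraries, WT (filled points) and Tgfbr1 KO (open points). Colours give the culture and black lines the mean of 3 libraries. Gata3 was at 58.8 RPKM or more in both KO cultures with IL-4 but at 32.3 to 33.6 RPKM in WT TGF-β + IL-4, Maf and Il9 were high in WT cells with TGF-β, and Il24 was at or near 0 in all KO libraries.

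Counted over the 7 genes, at most 3 passed in a comparison, and apart from Il4 in 1 comparison they were Gata3, Maf and Il24. With IL-4, 1 of 7 passed in WT (Gata3), where 1.13% of all genes tested passed. With TGF-β, 2 of 7 passed (Gata3 lower, Maf higher) against 6.45% of all genes. With TGF-β + IL-4, 2 of 7 passed against 11.1% of all genes, and both were higher. TGF-β + IL-4 against IL-4 alone gave 2 of 7 (Maf higher, Gata3 lower) against 11.0%, and against TGF-β alone 1 of 6 tested (Gata3) against 3.16%. No gene of the 7 passed for the WT interaction of both cytokines, where 1.38% of all genes did. At an unadjusted p under 0.05 in limma that interaction took in 1 gene, Maf (−0.53 ± 0.21).

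In KO cells 1 of 5 tested passed with IL-4 and 1 of 5 with TGF-β + IL-4, Gata3 both times, against 2.40% and 1.63% of all genes. With TGF-β 0 of 5 passed in limma and 0 were at an unadjusted p under 0.05. Of all 12279 genes 2, or 0.0163%, passed there, and limma-voom on recovered reads called 1. Il5 and Il24 were under the minimum in all 3 of these comparisons. Between the genotypes, 2 of 7 passed in control (Gata3, Il24) against 2.45% of all genes, 2 of 6 with TGF-β (Maf, Il24) against 11.8%, 2 of 7 with IL-4 (Il4, Il24) against 2.77% and 3 of 6 with TGF-β + IL-4 (Gata3 higher, Maf and Il24 lower) against 8.93%. The genotype changed the response to TGF-β in 2 of 7 (Gata3, Maf) against 4.41% of all genes, to IL-4 in 1 of 7 (Gata3) against 0.0404%, or 5 genes in all, and to TGF-β + IL-4 in 3 of 6 (Gata3, Maf, Il24) against 3.71%. Comparisons with the same control or WT libraries share them and are not independent.

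**Figure D3:**
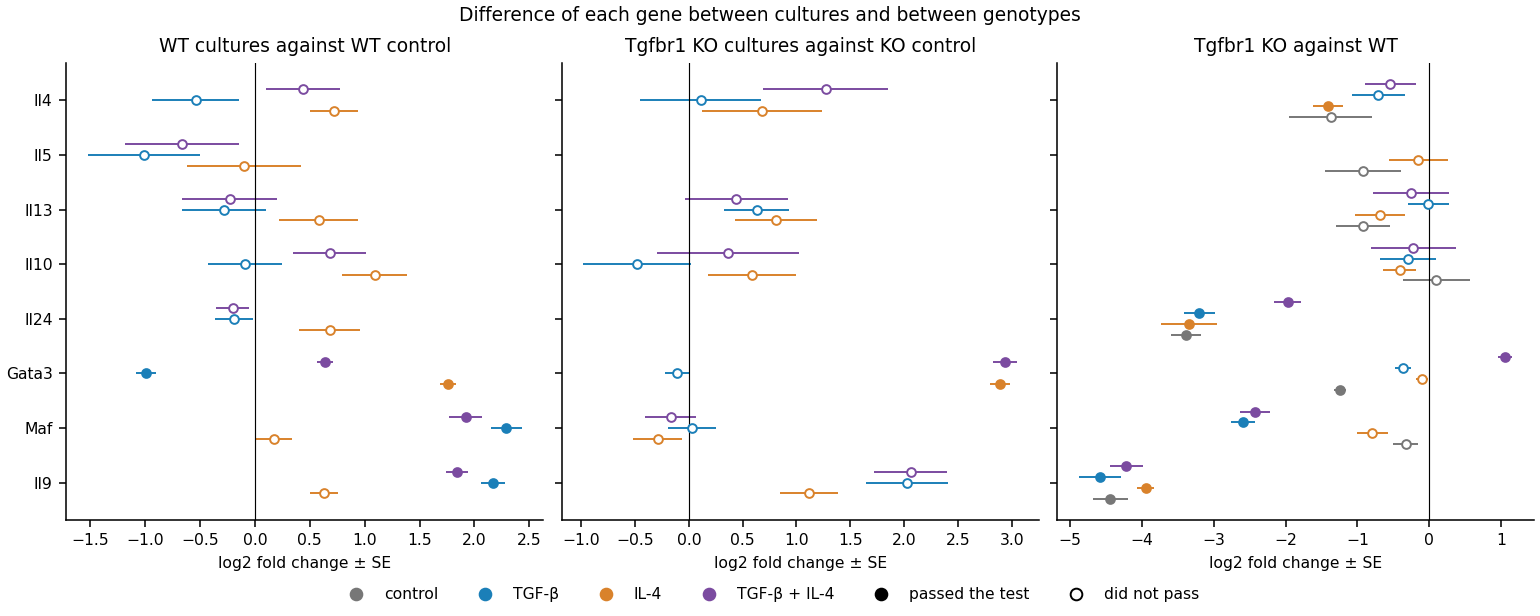
Log2 fold change ± SE (horizontal axes) of the 7 genes and Il9 for WT cultures against WT control (left), KO cultures against KO control (middle) and Tgfbr1 KO against WT in each culture (right), in limma fits of log2(RPKM + 0.1). Filled points passed the test and open points did not, colours give the culture, and genes under the minimum have no point. For TGF-β + IL-4 against control Gata3 stands at 0.64 in WT and 2.94 in KO, and Maf at 1.92 in WT and −0.17 in KO.

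Of the IL-4 receptor and signalling genes, 7 of 12 tested were lower in KO than in WT control and 5 of 12 rose with IL-4 in KO. Of 13 genes of the receptor and its signalling, 12 were tested. In WT 1 rose with IL-4, Socs1, a feedback inhibitor (0.82 ± 0.05, adjusted p = 0.00015 in limma), where 1.13% of all genes passed, and the list's median log2 difference was 0.12 beside 0.01 over all genes. In KO 5 rose with IL-4, namely Socs1 (1.63 ± 0.06), Cish (1.60 ± 0.13), the receptor chain Il4ra (1.07 ± 0.06), Stat5a (0.79 ± 0.08) and Stat5b, with a median of 0.46 beside 0.01 and where 2.40% of all genes passed. With TGF-β + IL-4 Socs1, Cish, Il4ra, Stat5a and Stat5b rose, in WT as in KO. The response of Socs1 to IL-4 was larger in KO than in WT (0.81 ± 0.07, adjusted p = 0.0011 in limma), and those of the other 11 did not pass that test. Stat6 itself, the factor that carries the IL-4 signal, had means between 57.8 and 69.0 RPKM in the 8 groups and passed in no comparison. In control, 7 of the 12 were lower in KO than in WT, among them Socs1 (−1.21 ± 0.06), Irs2 (−1.04 ± 0.15) and Cish (−0.90 ± 0.15), with a list median of −0.63 beside 0.02 over all genes and 2.45% of all genes called. Il2rg, Jak1 and Tyk2 did not pass there, with means of 511, 56.2 and 10.3 RPKM in KO and 448, 51.4 and 9.07 RPKM in WT. With IL-4 0 of 12 passed in limma (median −0.16 beside 0.02, 2.77% of all genes called). With TGF-β 6 of 12 were lower in KO (11.8% of all genes called) and with TGF-β + IL-4 4 of 12 (8.93%).

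Among 15 other factors that promote Th2 cells, 13 were tested, and 4 rose with IL-4, where 1.13% of all genes passed. The list median was 0.37 in WT beside 0.01 over all genes. Nfil3, Satb1, Gfi1 and Batf rose in WT by 1.11 ± 0.09, 0.97 ± 0.11, 0.96 ± 0.10 and 0.69 ± 0.07 on the log2 scale. In KO these rose with IL-4 by 1.82 ± 0.09, 1.59 ± 0.08, 1.61 ± 0.17 and 0.92 ± 0.06, and with TGF-β + IL-4 by 1.79 ± 0.09, 1.69 ± 0.11, 1.49 ± 0.17 and 0.94 ± 0.09. In WT with TGF-β + IL-4 Gfi1 fell (−0.96 ± 0.14, adjusted p = 0.000884 in limma) and the other 3 did not pass. The mean of Nfil3 was 16.5 RPKM there and 11.4 RPKM in WT control. Another 3 genes of the list rose in that comparison, Nfatc2 (1.00 ± 0.11), Rbpj (0.91 ± 0.06) and Irf4 (0.73 ± 0.06), and the list median was 0.15 beside 0.06 over all genes, of which 11.1% passed. TGF-β alone lowered Gfi1 (−2.33 ± 0.29, adjusted p = 0.00119 in limma) and Satb1 (−1.32 ± 0.10, adjusted p = 9.94e-05 in limma) in WT and raised Rbpj (0.68 ± 0.06) and Nfatc2 (0.68 ± 0.12). Gfi1, a repressor that sustains the growth of Th2 cells, had means of 3.52 RPKM in control, 0.66 with TGF-β, 6.91 with IL-4 and 1.77 with the combination in WT, and in the same order 2.04, 2.14, 6.44 and 5.85 RPKM in KO. The genotype changed the response to TGF-β + IL-4 in 4 of the 13, Gfi1 (2.44 ± 0.23), Satb1 (1.94 ± 0.14), Nfil3 (1.26 ± 0.12) and Batf (0.86 ± 0.11), all higher in KO, and the adjusted p of these in limma lay between 5.15e-06 and 0.000334. Over all genes 3.71% passed that test.

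Factors that restrain Th2 cells moved in both directions. Foxp3, the factor of regulatory T cells, had means of 5.70 RPKM in WT control, 64.3 with TGF-β, 1.92 with IL-4 and 33.7 with TGF-β + IL-4. In KO its means were 1.43, 4.21, 0.611 and 1.66 RPKM, and it was the only one of the 9 to pass with TGF-β in KO (1.48 ± 0.12, adjusted p = 0.00472 in limma). Runx1, which represses Gata3, rose with TGF-β (0.88 ± 0.08) and with TGF-β + IL-4 (1.24 ± 0.07) in WT, and its genotype difference in the latter response was −1.13 ± 0.15 (adjusted p = 0.00043 in limma). Eomes fell with TGF-β in WT (−2.67 ± 0.22, adjusted p = 0.00014 in limma), and Tbx21, the factor of Th1 cells, had means of 48.9 to 83.0 RPKM and passed once, lower in KO than in WT control. Of the 9, 3 passed with TGF-β in WT, 4 with TGF-β + IL-4 and 1 with IL-4, where 6.45%, 11.1% and 1.13% of all genes passed. The list medians were 0.12, 0.26 and 0.08 beside 0.02, 0.06 and 0.01 over all genes.

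Of 12 Th2 surface and effector genes, 8 to 10 were tested. Ccr8 and Ccr4, chemokine receptors of Th2 and regulatory T cells, rose with IL-4 in WT (1.32 ± 0.08 and 1.11 ± 0.08) and in KO (2.30 ± 0.11 and 2.06 ± 0.09). In WT both also rose with TGF-β alone, Ccr8 by 2.77 ± 0.06 and Ccr4 from a mean of 11.2 to one of 22.5 RPKM, and with TGF-β + IL-4 (2.75 ± 0.06 and 1.84 ± 0.07). Csf2 and Il3, cytokine genes that lie on the same chromosome as Il4, fell with TGF-β in WT (−1.99 ± 0.20 and −2.69 ± 0.28) and differed in that response between the genotypes by 2.40 ± 0.32 and 3.27 ± 0.41 (adjusted p = 0.000342 and 0.000228 in limma). With IL-4 Csf2 rose in WT (0.74 ± 0.10, adjusted p = 0.00644 in limma), where Il4, Il5 and Il13 did not pass. Ptgdr2, a prostaglandin receptor found on Th2 cells, had means of 0.0110 to 0.0817 RPKM and was under the minimum. Il1rl1, the IL-33 receptor, had means of 0.125 to 0.399 RPKM.

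**Figure D4:**
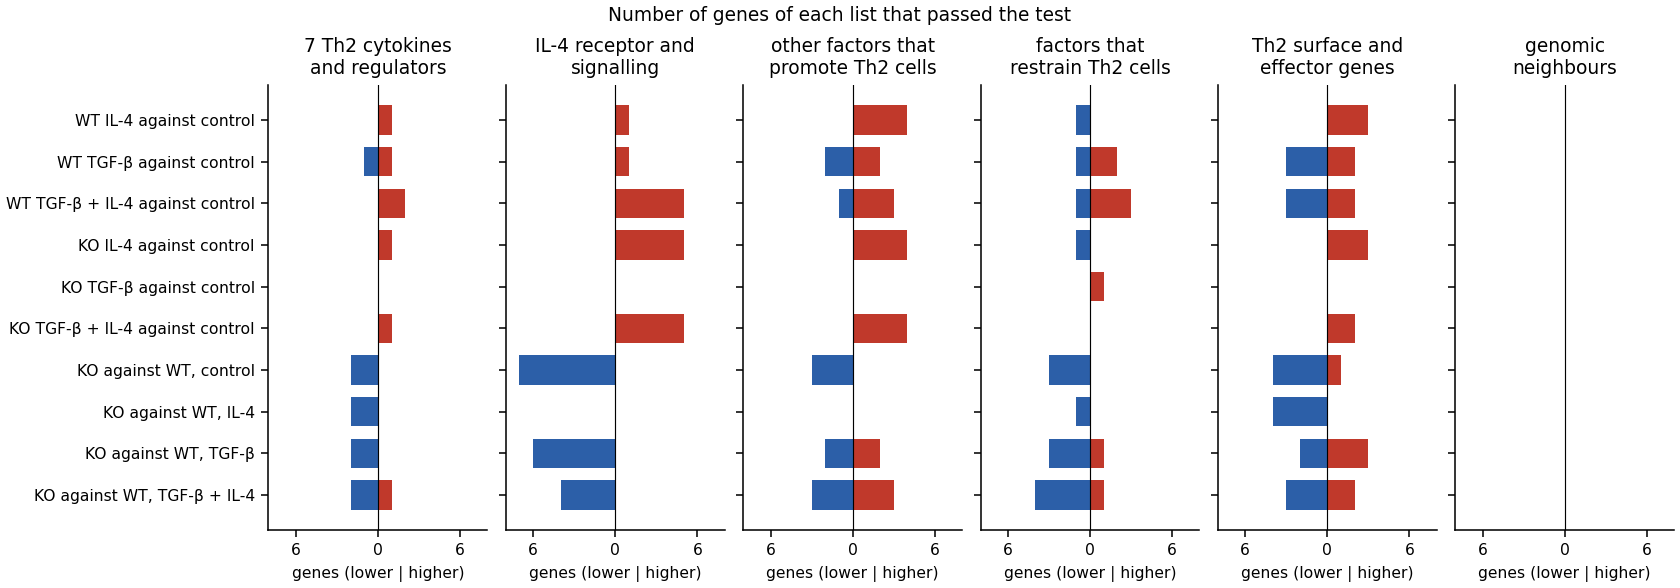
Number of genes of each list that passed the limma test, higher (red, to the right) or lower (blue, to the left), in 10 comparisons (vertical axis). For IL-4 against control the 13 genes of IL-4 receptor and signalling show 1 higher in WT and 5 higher in KO, and no gene next to the cytokine loci passed in any of the 10. Over all genes 0.0163% to 11.8% passed in these 10.

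Of 9 genes next to the 7 genes, 7 were tested, and 0 passed in each of the 16 comparisons in limma. Over all genes 0.0163% to 11.8% passed in these comparisons, so 0 of 7 does not set the neighbours apart. Rad50, whose introns hold the control region of the Th2 cytokine cluster, had means of 8.85 to 10.5 RPKM, and Kif3a and Irf1, to either side of the cluster, 0.918 to 1.31 and 56.2 to 73.8 RPKM. Il20, of the Il10 cluster, was at 0 RPKM in all 24 libraries, and Il19 had means of at most 0.0678 RPKM. Mapkapk2, beside Il10, had means of 12.8 to 18.3 RPKM.

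Across the 24 libraries the gene with the pattern most like that of Gata3 was Nfil3 (Pearson r = 0.988 of log2(RPKM + 0.1)), then Trib1 (0.973) and Zfp280b (0.972). Rcan3, Capg and Syp were most like Maf (0.980, 0.976 and 0.974), and Ddr1, Eif2ak2 and Fam132a most like Il24 (0.956, 0.951 and 0.946). The highest r was 0.821 for Il4 (Ptpn11), 0.780 for Il10 (Slc25a44), 0.698 for Il13 (Hddc3) and 0.682 for Il5 (Stk11). These values describe 24 libraries that share groups and mice, among genes with a mean of at least 1 RPKM, and were not tested.

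The 4 DNase-seq lists held 44298 DHSs in control and 33880 with TGF-β + IL-4 for WT cells, and 33665 and 27145 for KO cells. DHSs near all other genes were not counted, so whether the 7 genes had few or many was not tested. Within 10 kb of the 7 genes they held 11, 5, 7 and 8 DHSs in that order, and 5, 5, 5 and 8 when the lists were set to equal length. Gata3 had 4, 4, 4 and 5 of them and Maf 1, 1, 2 and 1. Il5 had none in any list within 10 kb, but 9, 8, 7 and 6 within 50 kb. Il4 had 2 in WT control, at chr11:53423198-53423488 (fold enrichment 5.00) and, between Il4 and Il13, at chr11:53441438-53441754 (6.41). It had 1 in KO TGF-β + IL-4, at chr11:53419166-53419402 (4.49). The first and the last of these lie 8828 and 12887 bases past the Il4 start. They are in an Il4 intron by the annotated span (chr11:53416484-53432171), and where shorter Il4 transcripts end was not examined. The WT TGF-β + IL-4 list held no DHS within 10 kb of Il4, Il5, Il13, Il10 or Il24. Within 50 kb it held 4, 8, 3, 3 and 1, and windows of neighbouring genes overlap. Il10 had 3 in WT control, one of which, in its intron (chr1:132919184-132919661), was also in KO TGF-β + IL-4 (fold enrichments 4.69 and 5.20). Il24 had 1, in WT control alone (chr1:132776370-132776700, 5.08), in an intron of the next gene, Faim3. None of the cytokine genes had a DHS within 1 kb of its start.

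Il9 had 2 or 3 DHSs in every list. The strongest, chr13:56578011-56578566, past the 3′ end of the gene, had fold enrichments of 13.3 in control and 9.02 with TGF-β + IL-4 in WT cells, and of 8.33 and 6.85 in KO cells. In the same order it ranked in the top 2.87%, 13.8%, 10.8% and 21.3% of its list. Lists of unequal length and 1 library per condition allow no test, how deeply they were sequenced is not known, and the absence of a DHS from a list says only that the peak caller's threshold was not reached.

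**Figure D5:**
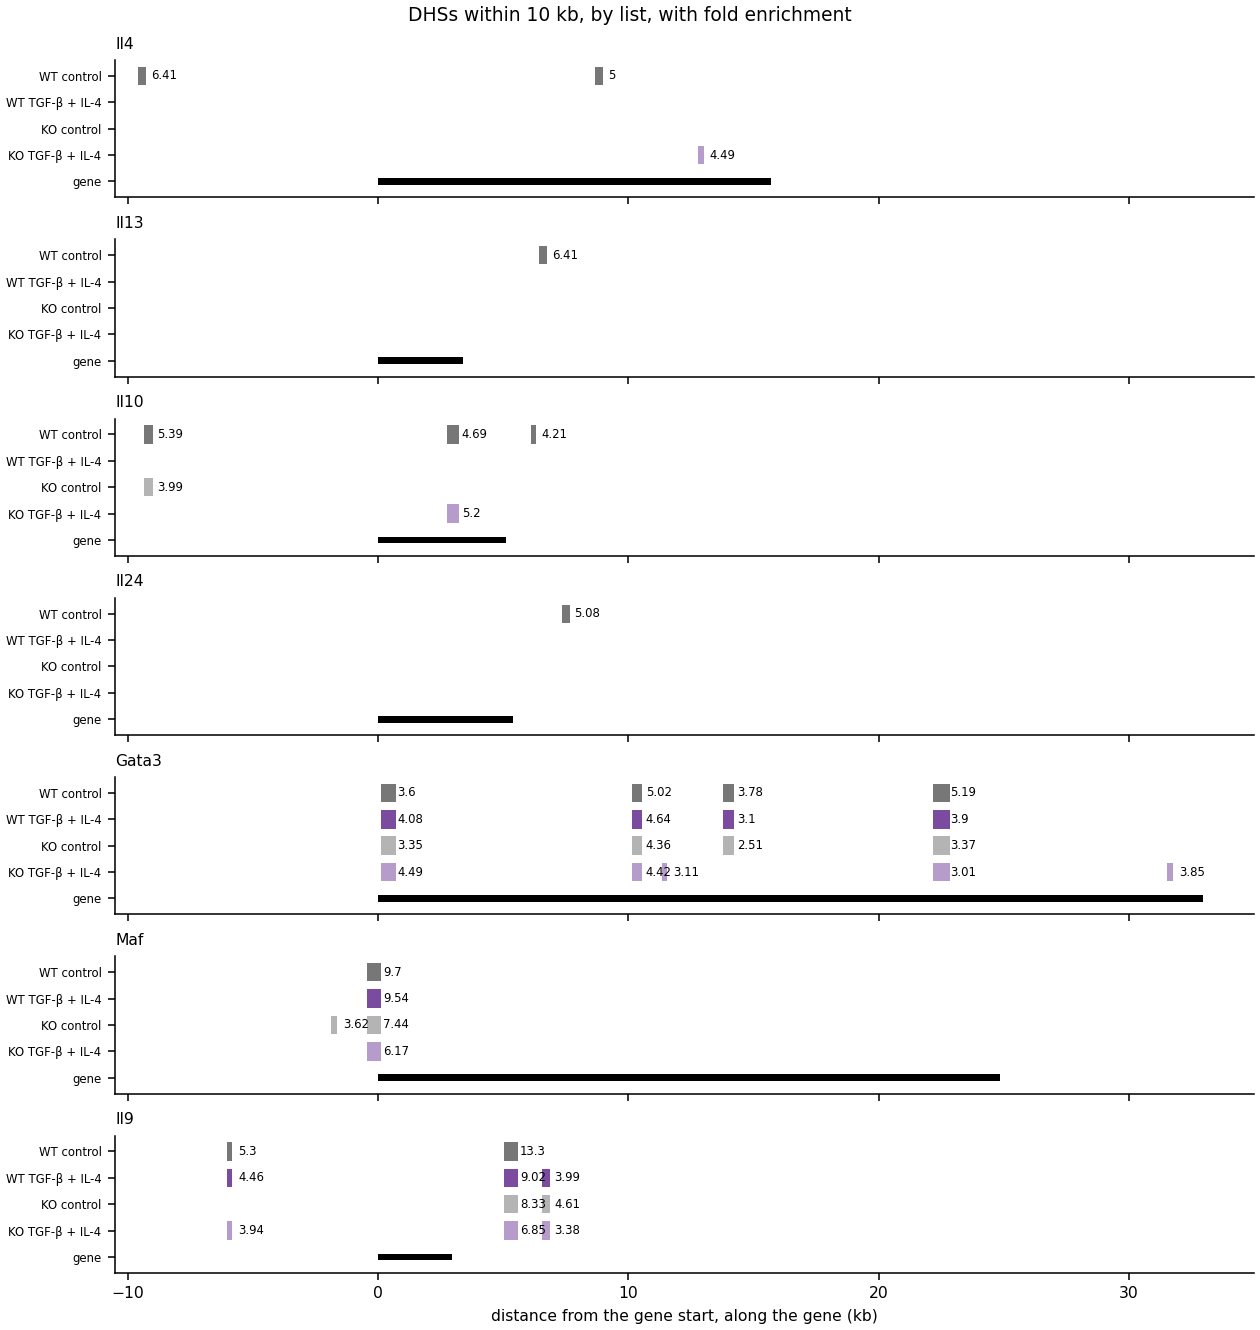
DHSs within 10 kb of 6 of the 7 genes and of Il9, by distance from the gene start in kb along the gene (horizontal axis) and by list (vertical axis). Box width is the width of the DHS, the number beside it its fold enrichment, black bars are the genes, and Il5 is left out because no list held a DHS near it. Gata3 shows 3 sites and Maf 1 site that all 4 lists share.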

How the data were processed

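RNA-seq (Smart-seq2, 24 libraries) and DNase-seq (4 libraries) were analysed from deposited tables. Per the labels and the study's methods, the authors aligned reads with Bowtie2 to mm9, dropped duplicates and poorly mapped reads, and normalised gene reads to RPKM values. The authors called DHSs with MACS2 in each library, and its deposited files give fold enrichment and −log10 p and q values. Tool versions are not given in the sources used here.

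RPKM was tested in limma 3.58.1 (R 4.3.3) on log2(RPKM + 0.1) with a trended variance, over genes with a mean of at least 0.1 in the libraries compared, each comparison fitted on its own groups. The fit of a pair of groups was checked on simulated data, with changes set only in genes at a mean of 1 RPKM or more. Changes in lower genes and interactions were not simulated. Levels, DHSs within 10 kb of a gene, motifs and plots were computed in Python 3.11.15 with numpy 2.4.6, pandas 2.3.3 and matplotlib 3.10.9. Relative depth, from the RPKM steps of 1 read, ran from 0.826 to 1.656 in WT and from 0.794 to 1.403 in KO libraries. Of 12508 genes with a mean of at least 0.1 RPKM over all 24 libraries, 9212 (73.6%) came within 0.05 of whole reads in all 24, and genes with whole reads were also tested with limma-voom, an alternative added after the data were seen. Recovered reads and limits from a count of 0 cover counting error only.

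The 7 genes and all lists were chosen with earlier results of these data known. Named beside them were up to 4 genes per list and comparison, those with the largest fold among genes that passed, and the 3 genes most correlated with each of the 7. Genes named outside that rule were chosen after their values were seen. Replicate numbers of the labels were taken to name mice. Deviations of libraries with the same number correlated with a median of 0.05 in WT (over 0.1 in 6 of 18 pairs) and 0.14 in KO (10 of 18). Between genotypes the numbers name different mice. Where labels do not tell mice from repeat cultures, p measures the spread between these libraries. Alternatives were the headings as given, pseudocount, filter, scaling, one fit of all libraries, no trend, a replicate block, each library left out, the 8 identified WT libraries and other DHS settings.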

Additional observations from a re-analysis of the deposited data

Results flagged for a closer look

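In 6 cases the response of a gene differed between WT and KO cells by a test of the difference itself. For Gata3 the KO response was larger by 2.30 on the log2 scale with TGF-β + IL-4, by 1.13 with IL-4 and by 0.88 with TGF-β. For Maf it was smaller, with differences of −2.26 for TGF-β and −2.09 for TGF-β + IL-4. For Il24 the difference was 1.42 for TGF-β + IL-4, where the KO control level was 0.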

How the results depend on the processing

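A difference that passed neither way is counted here as unchanged. With columns grouped by their headings, 0 of the 7 genes passed in any comparison, against 1 to 3 in 14 comparisons read by library order, the WT interaction of both cytokines in Il9 reversed from −0.97 (adjusted p = 0.00455 in limma) to 0.33, and 0 to 9 genes of the whole table passed in place of 2 to 1466. Among the 7 genes, TGF-β + IL-4 against control in WT gave 1 in place of 2 with median ratio scaling and with the 8 identified WT libraries. In KO it gave 2 in place of 1 with no filter and with all 24 libraries in one fit. The gene added there to Gata3 was Il5 or Il24, which were otherwise under the minimum in that comparison. With a filter at a mean of 1 RPKM, which takes out low genes, 1 passed for KO against WT in control, TGF-β and IL-4, and 1 for the genotype interaction with TGF-β and with TGF-β + IL-4. KO against WT with IL-4 gave 1 with no filter, 0 without a trend and 0 with limma-voom, in which Il4 was not tested. The genotype interaction with IL-4 gave 0 without a trend. The replicate block gave 1 in place of 2 for KO against WT with IL-4 (Il4, adjusted p = 0.0121 in limma) and ended the Il24 interaction of genotype with TGF-β + IL-4 (adjusted p = 0.0228 in limma), and it changed no other call of the 7 genes and Il9 out of 118. For KO against WT the block paired different mice by number, so the loss of Il4 there decides nothing. With each library left out in turn, the genes that passed numbered 1 to 2 for TGF-β + IL-4 against control in WT, 2 to 3 against IL-4 alone, 1 to 2 for KO against WT with IL-4, 0 to 1 for the genotype interaction with IL-4 and 2 to 3 for that with TGF-β + IL-4. The Il9 interaction did not pass in 6 of 12 such fits (adjusted p 0.0104 to 0.0154 in limma), with all 24 libraries in one fit (0.187), without a trend (0.0163) or with the 8 identified WT libraries (0.0305). DHSs within 50 kb numbered 37 and 22 in WT control and TGF-β + IL-4, and 23 and 25 in KO, and with lists of equal length WT control held 5. The cause of these changes was not tested.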
